A study of Homo sapiens with 10 samples.

Results

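The response of 22RV1 prostate cancer cells to Endovion (SCO-101) was examined by SLAM-seq in 4 of the 10 libraries of the series: 2 libraries of cells treated with 50 μM Endovion for 4 h and 2 libraries of control cells, chosen by their labels alone. 22RV1 is an established cell line of castration-resistant prostate cancer, and all groups are the same line. Both groups received 4-thiouridine for the last 10 min, so that a read with a T>C conversion marks newly made RNA. Neither group carried a genetic change made for the experiment, and the control cells are labelled only as control. The study asked whether Endovion alters active transcription in the way that SRPIN340, an inhibitor of the splicing kinase SRPK1, does. Another 6 libraries served for comparison, 2 for each of 3 treatments of equal length: SRPIN340 at 20 μM, THZ531, an inhibitor of the elongation kinase CDK12, and THZ531 and 50 μM Endovion together. The dose of THZ531 is 100 nM in the methods and 150 nM in the description of the series. Nothing in the labels says that the 2 libraries of a group came from separate cultures, so the p-values below measure the spread between these libraries, which may be technical.

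Endovion was developed as a blocker of volume-regulated anion channels of the LRRC8 family. It also inhibits the drug efflux pump ABCG2 and the conjugating enzyme UGT1A1, and has been described as an inhibitor of SRPK1. Small aromatic molecules can act as ligands of the aryl hydrocarbon receptor (AHR), which moves to the nucleus, pairs with ARNT and binds DNA at the core sequence GCGTG near the genes of the CYP1 family. Cells that are short of amino acids or under stress slow translation through the integrated stress response, in which the factor ATF4 induces genes of amino acid uptake and synthesis. SREBP factors keep the genes of cholesterol synthesis active when sterols are scarce, and in luminal prostate cells androgen drives secretory genes.

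The control libraries held 27235938 and 23154122 reads on genes, of which 1551142 and 1304432 were T>C reads. The Endovion libraries held 25707162 and 19995968 reads and 1301154 and 1032920 T>C reads. T>C reads were 5.66% ± 0.0435 of all reads in control cells and 5.11% ± 0.0737 with Endovion (SD, n = 2 libraries per group; exact two-sided permutation test, p = 0.33, the smallest that this design allows). Within a group the libraries varied beyond counting error. The 13 luminal markers summed to 2732 and 2842 CPM (reads per 1000000 reads of the library) in control cells and to 2334 and 2242 with Endovion, while the 4 basal markers summed to at most 2.42, the 5 neuroendocrine markers to at most 27.7 and the 3 endothelial markers were at 0 in all 4 libraries. In bulk RNA, fewer cells of a type and less RNA per cell cannot be told apart.

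With Endovion, 203 of 9945 tested genes rose in nascent RNA and 62 fell (edgeR's quasi-likelihood test, Benjamini-Hochberg adjusted p under 0.05). These are 2.04% and 0.623% of the genes tested. In total RNA, meaning all reads of a gene, 1308 of 14688 genes rose, 8.91%, and 373 fell, 2.54%. The median log2 fold change of all tested genes was -0.01 in nascent and 0.02 in total RNA. Of the 203 genes that rose in nascent RNA, 119 also rose in total RNA, which is 58.6% of the former and 9.88% of the 1205 genes that rose in total RNA and were tested in both. Of the 62 that fell, 38 also fell in total RNA, 61.3% of the former and 11.4% of the 334 of the latter. No gene called in both readouts had opposite directions in them. The control and Endovion groups did not overlap in any of the 203 and 62 genes called in nascent RNA. The same held for the 1308 and 373 genes called in total RNA. A lack of overlap reported below for a gene called against control is therefore no added support.

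**Figure D1:**
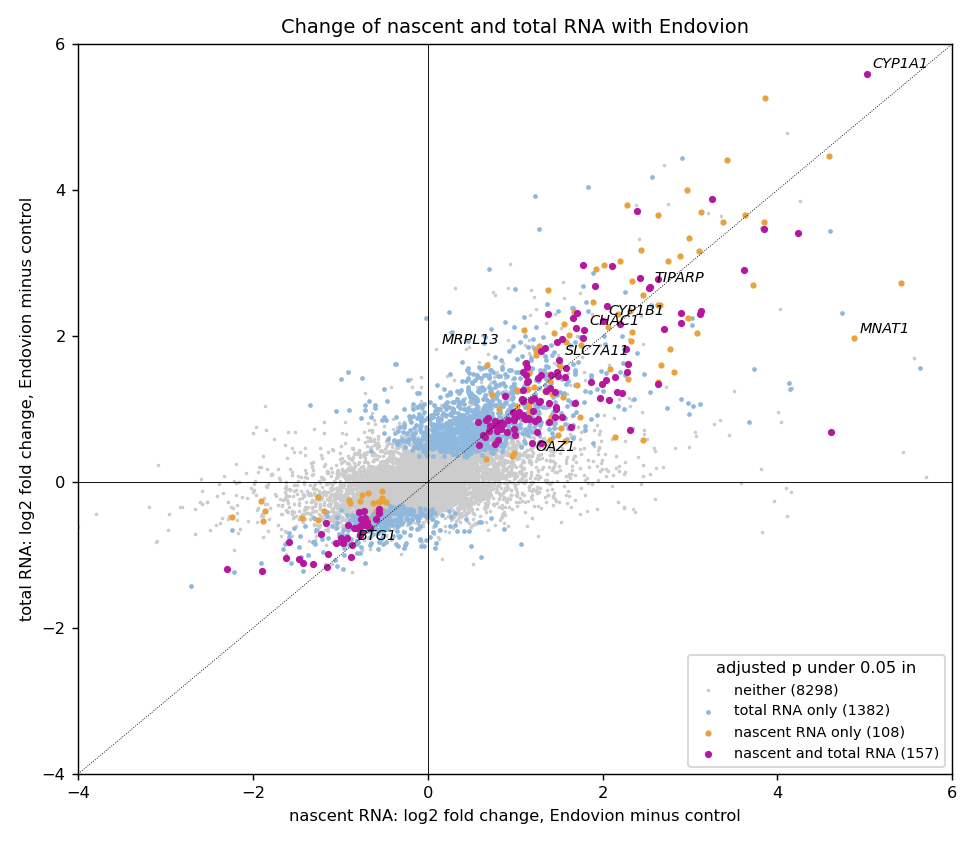
Log2 fold change of nascent RNA (horizontal axis) against that of total RNA (vertical axis), Endovion minus control, for the 9945 genes tested in both. Each point is a gene, coloured by whether it passed an adjusted p of 0.05 in neither readout (8298 genes), in total RNA only (1382), in nascent RNA only (108) or in both (157), and 5 genes lie outside the axes. The genes called in both readouts lie to the upper right and the lower left, with CYP1A1 farthest along the diagonal.

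The 2 control libraries were not alike for many of the genes that rose. In 170 of the 203 risers the second control library had a lower normalised T>C level than the first, by 1.46-fold at the median of the 203. In total RNA the same held for 1175 of the 1308 risers. The genes that rose also had a lower GC content in the last 250 bases of their transcripts, with a median of 33.2% against 36.8% for all genes tested for nascent RNA, and the genes that fell had 43.2%. For total RNA these medians were 31.2%, 38.4% and 45.6%. GC content also went with the difference between the 2 control libraries. Its Spearman correlation with control 2 minus control 1 was 0.34 in total and 0.14 in nascent RNA. With Endovion minus control it was -0.45 and -0.22. The part of these differences in the calls was not tested. Fewer genes were called without the second control library, but such a fit keeps 1 control library, so the drop does not measure that part. After removal of the trend with GC content 183 genes rose and 81 fell in nascent RNA, and 921 rose and 576 fell in total RNA. The THZ531 libraries gave a second pair of groups, whose means do not enter the comparison with control, although all 10 libraries set the spread in the fit. When THZ531 with Endovion was set against THZ531 alone, 136 of the 203 risers and 53 of the 62 fallers had the same sign, with medians of 0.14 and -0.39 on the log2 scale where the comparison with control gave 1.48 and -0.84. In that pair 14 genes rose and 18 fell in nascent RNA, 0.141% and 0.181% of the genes tested. The genes called in both pairs, 5 that rose and 11 that fell, included CYP1A1, CYP1B1, CHAC1, SLC7A11 and HERPUD1, which rose, and SLC45A3, PMEPA1, BTG1, HES7, SFN, SRSF7, HMGCS1, NOP16, AMD1 and TMA7B, which fell. They are 2.46% of the 203 and 17.7% of the 62 genes called against control, and 35.7% of the 14 and 61.1% of the 18 called against THZ531.

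**Figure D2:**
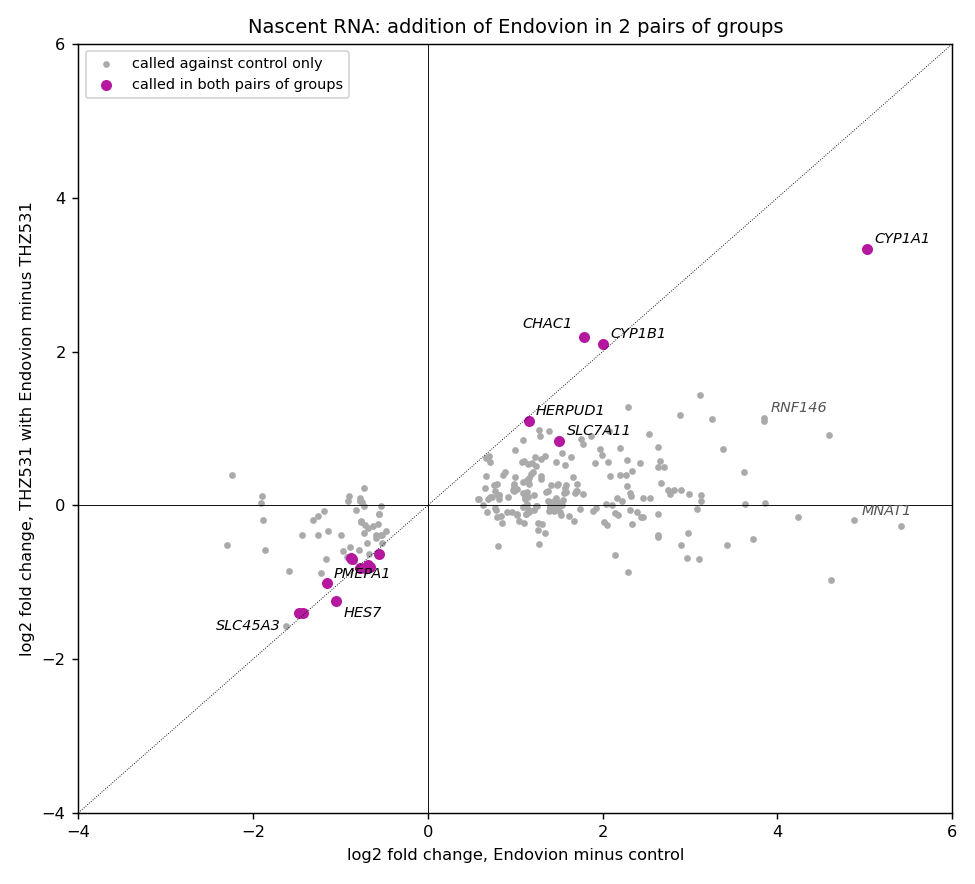
Log2 fold change of nascent RNA on addition of Endovion, against control (horizontal axis) and against THZ531 alone (vertical axis), for genes called against control. Of the 265 genes, 263 lie inside the axes, the 16 filled in magenta passed an adjusted p of 0.05 in both pairs of groups, and the dotted line marks equal change. CYP1B1, CHAC1, HERPUD1 and the falling genes called in both lie near that line, while most other risers lie near 0 on the vertical axis.

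Targets of AHR were among the strongest risers. CYP1A1 and CYP1B1 encode the monooxygenases that oxidise polycyclic aromatic compounds, and TIPARP encodes an ADP-ribosyltransferase that limits the receptor. CYP1A1 had 5.15 and 6.42 T>C CPM in the control libraries and 180 and 199 with Endovion, where T>C CPM is the number of T>C reads per 1000000, scaled by the library sizes that the TMM method gives. Both Endovion libraries were far above both control libraries. The log2 fold change was 5.02 with an SE of 0.40 (adjusted p = 3.09e-14), and in total RNA, where the reads went from 141 and 87 to 4808 and 4817, it was 5.59 with an SE of 0.18 (adjusted p = 2.02e-11). CYP1B1 had 45.7 and 36.1 T>C CPM in control cells and 125 and 208 with Endovion. The groups did not overlap, though the 2 Endovion libraries were apart from each other, and the log2 fold change was 2.01 with an SE of 0.28 (adjusted p = 2.38e-06). TIPARP was low, at 0.644 and 5.62 T>C CPM in control cells and 19.2 and 15.4 with Endovion, from 1, 7, 25 and 16 T>C reads (log2 fold change 2.53, SE 0.70, adjusted p = 0.0307). Its nascent call was lost when either Endovion library or the first control library was left out, with adjusted p between 0.0753 and 0.278. In total RNA its reads went from 83 and 57 to 397 and 382 (log2 fold change 2.66, SE 0.35, adjusted p = 0.00247).

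The list of AHR targets held 10 genes, of which 4 passed the filter on low counts for nascent RNA, and the 3 described above rose. CYP1A1 passed that filter through the libraries with Endovion, so the count is not a measure of the list. Over all genes tested 2.04% rose in nascent and 8.91% in total RNA. In total RNA 7 were tested and 4 rose, or 2 when the second control library was left out. The fourth was CYP1A2, the neighbour of CYP1A1 and an enzyme known best from liver, with 15 and 9 reads in control cells and 51 and 75 with Endovion (log2 fold change 2.60, SE 0.52, adjusted p = 0.00639; without the second control library 0.0794). NQO1, a quinone reductase that both AHR and NRF2 can induce, had 202 and 169 T>C CPM in control cells and 119 and 183 with Endovion. Its groups overlapped, and it passed no test (log2 fold change -0.31, adjusted p = 0.537). AHRR, the repressor of AHR, had 115 and 142 reads in control cells and 109 and 96 with Endovion (log2 fold change -0.17, adjusted p = 0.76), and its reads may be shared with an overlapping gene. ALDH3A1 had 5 reads in each of the 4 libraries, XDH had 6 reads or fewer, and UGT1A6 and SERPINB2 had none.

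The receptor and its partners were measured too. AHR itself had 9, 1, 8 and 8 T>C reads and a log2 fold change of 0.98 with an SE of 0.97, which did not pass the test (adjusted p = 0.718). None of the 7 genes of the receptor, its partner and its chaperones moved in nascent RNA. CPM of single genes in total RNA are scaled here and below by the TMM library sizes, unlike those of the markers above. In total RNA, ARNT rose by 0.64 on the log2 scale (SE 0.14, adjusted p = 0.011), from 31.8 and 26.1 to 44.7 and 45.3 CPM. This call was not made without the second control library (adjusted p = 0.182) or without either Endovion library (0.0655 and 0.0696).

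Windows from promoters of 4 AHR targets are shown because they hold the letters that the receptor binds, while the promoters of CYP1A2, SERPINB2 and XDH do not. They come from RefSeq promoters (GRCh38.p14), which run from 250 bases before to 50 bases after a gene's start. The windows are written 5′ to 3′ on the strand of the gene, with the core GCGTG, or CACGC where it lies on the other strand, in capitals.
CYP1A1, chr15:74725571-74725595, minus strand: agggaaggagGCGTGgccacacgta
TIPARP, chr3:156674372-156674396, plus strand: cgagaaaggaCACGCcccctcgcgg
TIPARP, chr3:156674438-156674462, plus strand: aacgaacgcgCACGCgcgcgcaggg
AHRR, chr5:321674-321698, plus strand: cgggcggctcGCGTGccggggtggg
NQO1, chr16:69726545-69726569, minus strand: gtgcactacaCACGCgactcccaca
Of the 10 targets, 8 had a promoter in the table, 12 promoters in all, and 6 promoters of 5 genes held GCGTG on either strand. The same 5 letters were found in 36.5% of all 35116 promoters, so that they are common. The longer form TNGCGTG was found in 3 of the 12 and in 5.51% of all promoters. Those 3 belong to AHRR, NQO1 and UGT1A6, and no promoter of CYP1A1 or TIPARP held it. The core was thus found in promoters of CYP1A1 and TIPARP, which rose, and of AHRR and NQO1, which did not pass the test.

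Addition of Endovion to THZ531 gave the same direction for both CYP1 genes. CYP1A1 had 12.4 and 4.07 T>C CPM with THZ531 and 66.9 and 115 with both compounds (log2 fold change 3.34, SE 0.39, adjusted p = 1.04e-07). CYP1B1 had 25.4 and 43.7 with THZ531 and 121 and 168 with both (log2 fold change 2.10, SE 0.30, adjusted p = 9.54e-06). Neither gene's groups overlapped in this pair. TIPARP had 11.7 and 26.4 with THZ531 and 43.2 and 27.5 with both, and did not pass the test (log2 fold change 0.93, adjusted p = 0.731). For CYP1A1 the effect of Endovion with THZ531 minus that without was -1.69 on the log2 scale, a difference that did not pass its own test (SE 0.62, adjusted p = 0.38).

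SRPIN340, the other compound directed at SRPK1, differed from Endovion at few genes. In a direct contrast of the 2 treatments 4 genes were higher with Endovion and 2 were lower, 0.0402% and 0.0201% of the genes tested. CYP1A1 stood at 0.676 and 3.13 T>C CPM with SRPIN340, below both Endovion libraries and both control libraries, and the log2 difference of Endovion from SRPIN340 was 6.53 (adjusted p = 3.24e-16). CYP1B1 stood at 33.8 and 36.3 with SRPIN340, within or next to the control libraries, and differed by 2.24 (adjusted p = 5.39e-07). The other 2 genes that were higher, MT-TM (1.23, adjusted p = 0.00209) and MT-TL1, are mitochondrial tRNAs, whose levels with Endovion did not differ from control by the test. WNT7B, a Wnt ligand, had 21.2 and 34.5 T>C CPM in control cells and 19.6 and 23.8 with SRPIN340 but no T>C read in either Endovion library, which makes it at least 8.37-fold lower than with SRPIN340 when each Endovion library is set to 3 reads. IRX3, a homeobox factor, had 410 and 476 in control cells, 490 and 428 with SRPIN340 and 241 and 211 with Endovion. Both Endovion libraries were below the other 4, and the log2 difference of IRX3 from SRPIN340 was -1.02 (adjusted p = 0.000793), while it fell against control by 0.97 (SE 0.18, adjusted p = 0.00024). The contrast shares its Endovion libraries with the comparison against control. For the other genes tested no difference between the compounds passed the test, which does not show that they act alike.

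**Figure D3:**
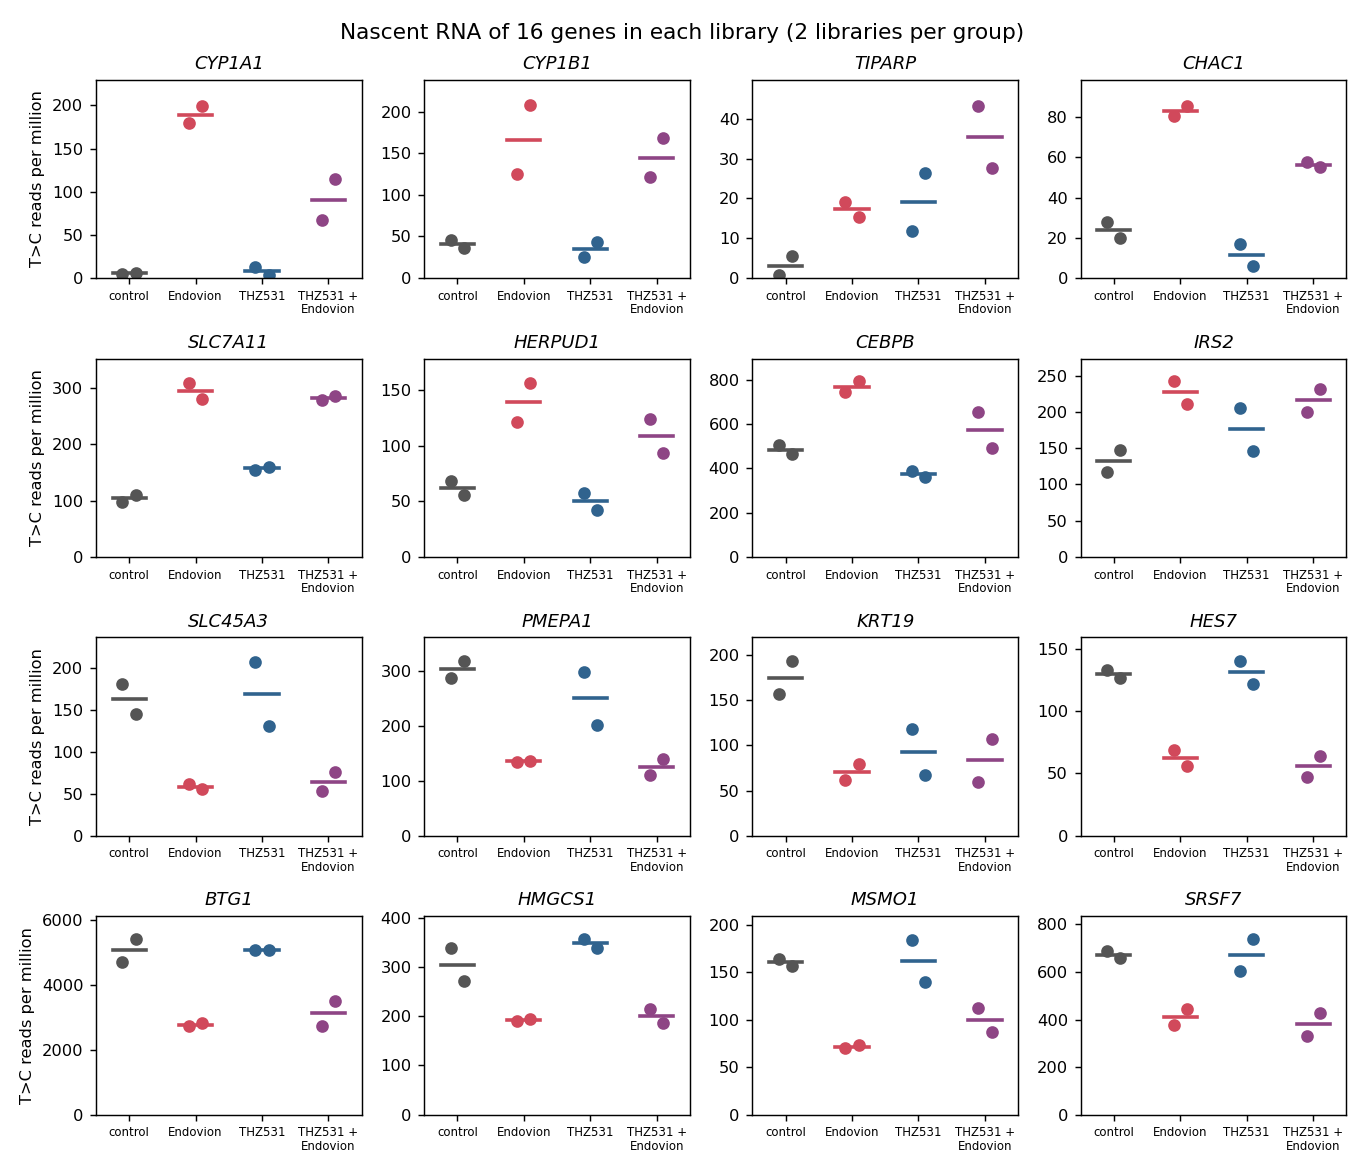
T>C CPM (normalised T>C reads, vertical axes, from 0) of 16 genes in the 2 libraries each of control, Endovion, THZ531, and THZ531 with Endovion. Points are libraries and bars are group means. CYP1A1 reached 180 and 199 with Endovion and 66.9 and 115 with both compounds, and SLC45A3, PMEPA1, BTG1 and HMGCS1 were lower in both Endovion groups than in the group without Endovion beside them.

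Some genes of the integrated stress response rose, and none fell. Of 36 tested members of a list of ATF4 and its targets, 5 rose in nascent RNA and none fell, and 32 had a positive log2 fold change, with a median of 0.58 against -0.01 for all genes. Over all genes tested 2.04% rose in nascent and 8.91% in total RNA. In total RNA 15 of 37 members rose and none fell, with a median of 0.54. Without the second control library 2 and 5 of them were called. The genes that rose in nascent RNA were CHAC1, which breaks down glutathione, SLC7A11, the cystine importer, CEBPB, a partner of ATF4, PSAT1 of serine synthesis and KLHL24, an adaptor for protein degradation. The nascent call on KLHL24 was lost when any 1 library was left out (adjusted p between 0.0557 and 0.389), by DESeq2 (0.0802) and after removal of the trend with GC content (0.0796). ATF4 itself, which is controlled mainly by translation, had 13943 and 13390 reads in control cells and 15558 and 14533 with Endovion, and did not pass the test in total RNA (log2 fold change 0.31, adjusted p = 0.127).

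SLC7A11 gave the most stable call of the group. It had 97.8 and 111 T>C CPM in control cells, 310 and 280 with Endovion, 155 and 161 with THZ531, and 279 and 286 with both. Libraries with Endovion were above those without it in each pair. The log2 fold change was 1.50 against control (SE 0.19, adjusted p = 1.06e-07) and 0.84 against THZ531 (SE 0.18, adjusted p = 0.0129). CHAC1 had 27.7 and 20.1 T>C CPM in control cells and 80.6 and 85.6 with Endovion, and 16.9 and 6.10 with THZ531 and 57.6 and 55.1 with both. Its groups did not overlap in either pair, and it rose by 1.78 (SE 0.34, adjusted p = 0.00039) and by 2.19 (SE 0.38, adjusted p = 0.000709) on the log2 scale. When the reads of all intervals of CHAC1 were summed, it was not called against control (log2 fold change 1.79, adjusted p = 0.0787). In total RNA CHAC1 rose against control (log2 fold change 2.08, adjusted p = 0.00953) but was not called over THZ531. HERPUD1, which is not a member of that list, helps to clear misfolded proteins from the endoplasmic reticulum. HERPUD1 rose from 68.2 and 56.2 to 122 and 157 T>C CPM (log2 fold change 1.15, SE 0.25, adjusted p = 0.00241), and by 1.10 over THZ531 (SE 0.26, adjusted p = 0.0327). Its call was lost without the second control library (adjusted p = 0.0869) and without the second Endovion library (adjusted p = 0.101).

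The smaller changes of the list were less stable. CEBPB had 504 and 462 T>C CPM in control cells and 744 and 792 with Endovion (log2 fold change 0.67, SE 0.15, adjusted p = 0.00433). PSAT1 had 194 and 182 in control cells and 275 and 342 with Endovion (log2 fold change 0.71, SE 0.18, adjusted p = 0.0115). In both genes the groups did not overlap, yet without the second control library the adjusted p was 0.0977 for CEBPB and 0.133 for PSAT1, and without the second Endovion library 0.0583 and 0.237. In total RNA further members rose, among them ATF3 (log2 fold change 1.15, adjusted p = 0.0032), the secreted stress signals GDF15 (0.81, adjusted p = 0.00987) and STC2 (0.61, adjusted p = 0.0273), the mitochondrial folate enzymes MTHFD2 (0.63, adjusted p = 0.00669) and ALDH1L2 (0.77, adjusted p = 0.0177), the amino acid carriers SLC38A2 (0.49, adjusted p = 0.0167) and SLC6A9 (0.82, adjusted p = 0.029), and TRIB3 (0.54, adjusted p = 0.0292). DDIT3, the death-promoting factor of the pathway, was just past the limit (0.58, adjusted p = 0.0496). Of these, ATF3 was called when any 1 library was left out. GDF15 was lost without the second Endovion library (adjusted p = 0.105), and STC2, MTHFD2, ALDH1L2, SLC38A2, SLC6A9, TRIB3 and DDIT3 without that library (0.0706 to 0.339) or the second control library (0.0883 to 0.337). In nascent RNA, where 2.04% of all genes tested rose, 1 of 18 cytosolic tRNA synthetases, which ATF4 also induces, rose. This was TARS1, which loads threonine, with 43.1 and 58.6 T>C CPM in control cells and 110 and 112 with Endovion (log2 fold change 1.13, SE 0.26, adjusted p = 0.00449). TARS1 was lost without the first control library (adjusted p = 0.079) and without the first Endovion library (adjusted p = 0.0582), and its change over THZ531 was 0.18 (adjusted p = 0.938).

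Targets of FOXO and MondoA, factors that respond to low insulin signalling and to the state of glucose, had more risers in total RNA than in nascent RNA. In nascent RNA 4 of 22 rose and none fell, with a median log2 fold change of 0.46, and in total RNA 11 of 23 rose and none fell, with a median of 0.50. The shares of all genes tested that rose were 2.04% and 8.91%. Without the second control library the counts were 2 and 2, and after removal of the trend with GC content 3 and 5. IRS2, an adaptor of the insulin receptor, had 117 and 147 T>C CPM in control cells and 242 and 212 with Endovion. Its groups did not overlap (log2 fold change 0.79, SE 0.20, adjusted p = 0.0106), though the nascent call was lost without the first control library (adjusted p = 0.122) or the first Endovion library (adjusted p = 0.208). In total RNA its call held when any 1 library was left out. IRS2 rose by 0.80 in total RNA (SE 0.10, adjusted p = 0.000999) and by 0.51 over THZ531 (adjusted p = 0.0403). CCNG2, a cyclin of arrested cells, had 314 and 181 reads in control cells and 805 and 620 with Endovion (log2 fold change 1.70, SE 0.21, adjusted p = 0.000896). FBXO32, a ubiquitin ligase of muscle wasting, had 272 and 169 and then 457 and 395 (log2 fold change 1.13, SE 0.26, adjusted p = 0.0131). Both rose over THZ531 as well, CCNG2 by 1.13 (adjusted p = 0.0254) and FBXO32 by 1.45 (adjusted p = 0.0299) on the log2 scale of total RNA. The call on CCNG2 against control held when any 1 library was left out, and that on FBXO32 was lost without the second control library (adjusted p = 0.172) or either Endovion library (0.0615 and 0.0896).

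Other genes rose in total RNA in both pairs of groups, 29 in all, which is 2.22% of the 1308 called against control and 60.4% of the 48 called against THZ531. The 48 are 0.327% of the genes tested. PAX6, a neural and pancreatic transcription factor, had 153 and 113 reads in control cells and 348 and 333 with Endovion (log2 fold change 1.54, SE 0.20, adjusted p = 0.000896), and rose by 1.36 over THZ531 (adjusted p = 0.00509). CREBRF, a regulator of the stress response and of energy use, rose by 1.14 (adjusted p = 0.0207) and by 1.69 (adjusted p = 0.0262). PAX6 was called when any 1 library was left out, whereas CREBRF was lost without the second control library (adjusted p = 0.227), the second Endovion library (0.122) or the first control library (0.0677). KLF7 had 27.5 and 24.1 CPM in control cells and 55.7 and 53.5 with Endovion (log2 fold change 1.08, SE 0.14, adjusted p = 0.000896) and rose by 0.95 over THZ531 (adjusted p = 0.00509). It was among 6 of 17 KLF and SP factors that rose in total RNA, where 8.91% of all genes tested rose, with KLF2, KLF3, KLF4, SP3 and SP4. Without the second control library 2 of the 6 were called, and KLF2, KLF4, SP3 and SP4 were lost (adjusted p = 0.372, 0.0707, 0.427 and 0.144). EGR1 rose by 1.39 (SE 0.24, adjusted p = 0.00376) and by 1.13 over THZ531 (adjusted p = 0.045), and lost its call against control without the second control library (adjusted p = 0.0669).

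Some cholesterol genes fell, and none rose. Of 21 tested members of the list of cholesterol synthesis and uptake, 2 fell in nascent RNA and none rose, 4 had a positive log2 fold change, and the median was -0.34. Over all genes tested 0.623% fell in nascent and 2.54% in total RNA. In total RNA 6 of 24 fell and none rose, with a median of -0.29, and 3 fell without the second control library. MSMO1, a sterol demethylase, had 164 and 156 T>C CPM in control cells and 69.8 and 73.1 with Endovion. The groups were far apart (log2 fold change -1.17, SE 0.23, adjusted p = 0.000681), and its nascent call held when any 1 library was left out. HMGCS1, which makes the precursor that HMG-CoA reductase uses, had 338 and 271 in control cells and 190 and 194 with Endovion (log2 fold change -0.67, SE 0.18, adjusted p = 0.0197). The call on HMGCS1 was lost without either Endovion library or the first control library, with adjusted p between 0.108 and 0.217, but the gene also fell over THZ531, from 358 and 339 to 214 and 186 (log2 fold change -0.80, SE 0.18, adjusted p = 0.0152). MSMO1 over THZ531 changed by -0.70 in nascent RNA, which did not pass the test (adjusted p = 0.239), and by -0.74 in total RNA, which did (adjusted p = 0.0254). The other members that fell in total RNA were the enzymes NSDHL (-0.85, adjusted p = 0.0107), MVK (-0.68, adjusted p = 0.00586), MVD (-0.51, adjusted p = 0.0368) and SQLE (-0.47, adjusted p = 0.0249). None of these 4 held when each library in turn was left out: MVK was lost without the first Endovion library (adjusted p = 0.0572) and the other 3 without either Endovion library or the second control library (0.0615 to 0.279). INSIG1, the sterol sensor's anchor, had 103 and 85.1 T>C CPM in control cells and 54.5 and 65.4 with Endovion. It did not pass the test (log2 fold change -0.66, adjusted p = 0.217).

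Luminal prostate genes fell in part. SLC45A3, a prostate-specific carrier also known as prostein, had 180 and 145 T>C CPM in control cells and 61.4 and 55.8 with Endovion. It fell by 1.47 on the log2 scale (SE 0.25, adjusted p = 8.07e-05), and by 1.41 over THZ531 (SE 0.25, adjusted p = 0.00106), where the libraries went from 207 and 131 to 53.4 and 75.7. PMEPA1, a membrane protein that androgen and TGF-beta induce and that dampens TGF-beta signalling, had 288 and 318 in control cells and 135 and 136 with Endovion (log2 fold change -1.16, SE 0.20, adjusted p = 0.000139), and 298 and 202 with THZ531 and 110 and 140 with both (log2 fold change -1.02, SE 0.21, adjusted p = 0.00653). In neither gene and in neither pair did the groups overlap. With SRPIN340, SLC45A3 stood at 63.6 and 73.2, close to Endovion, and PMEPA1 at 262 and 165. KRT19, a keratin of simple epithelia, had 157 and 193 in control cells and 61.4 and 79.8 with Endovion. It fell by 1.31 (SE 0.26, adjusted p = 0.000658; 0.082 without the first Endovion library), and by 1.12 in total RNA (SE 0.16, adjusted p = 0.00233), while its change over THZ531 was -0.19 (adjusted p = 0.936).

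Most androgen-induced genes did not pass the test. Over all genes tested 0.623% fell in nascent RNA, and 2.54% fell and 8.91% rose in total RNA. Of 27 tested members of the androgen list, SLC45A3 and PMEPA1 fell in nascent RNA and none rose, with a median of -0.12. In total RNA 5 of 30 fell and 1 rose, with a median of -0.19, and without the second control library none was called. KLK2, a secreted kallikrein whose call was lost when any 1 library was left out (adjusted p between 0.0552 and 0.235), had 559 and 487 reads in control cells and 335 and 184 with Endovion (log2 fold change -0.88, SE 0.25, adjusted p = 0.0327). KLK3, which encodes prostate-specific antigen, had 227 and 179 and then 109 and 76, just short of the limit (log2 fold change -0.98, adjusted p = 0.0507). Of 9 luminal lineage factors none passed in nascent RNA, where the median was -0.47 and 2 were above 0. In total RNA 4 fell and 1 rose, with a median of -0.54. Those that fell were EHF (-0.88, adjusted p = 0.0286), ELF3 (-0.79, adjusted p = 0.00253), SPDEF (-0.76, adjusted p = 0.0179) and HOXB13 (-0.55, adjusted p = 0.0198), and GRHL2 rose (0.66, adjusted p = 0.0181). ELF3, an epithelial ETS factor whose reads may be shared with an overlapping gene, was the member that also fell over THZ531 (-0.63, adjusted p = 0.0403). ELF3 was the only member of the 4 called when any 1 library was left out. EHF, SPDEF, HOXB13 and GRHL2 were each lost without the second control library (adjusted p = 0.0652, 0.111, 0.0743 and 0.264) and without the second Endovion library (0.238, 0.155, 0.18 and 0.068).

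Other genes fell in both pairs as well. BTG1, an antiproliferative partner of the deadenylase, was among the most labelled genes, with 4703 and 5415 T>C CPM in control cells and 2723 and 2816 with Endovion. It fell by 0.87 (SE 0.14, adjusted p = 1.33e-05) and by 0.70 over THZ531 (SE 0.14, adjusted p = 0.00277), where 5081 and 5059 became 2740 and 3486, and its call held in each setting that was tried. HES7, a repressor of the Notch pathway, had 133 and 127 in control cells and 69.1 and 55.8 with Endovion. Its log2 fold change was -1.05 (SE 0.25, adjusted p = 0.00719; 0.145 without the second Endovion library), and -1.24 over THZ531 (SE 0.25, adjusted p = 0.00653). SFN, the 14-3-3 sigma protein of epithelial cells, had 1343 and 2076 in control cells and 985 and 870 with Endovion (log2 fold change -0.88, SE 0.15, adjusted p = 0.000145). The 2 control libraries of SFN were far apart, and without the second the change was -0.53 (adjusted p = 0.118). Over THZ531 it fell by 0.69 (SE 0.15, adjusted p = 0.02).

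NOP16, a factor of large ribosomal subunit assembly, had 621 and 697 T>C CPM in control cells and 398 and 372 with Endovion, which is a log2 fold change of -0.77 (SE 0.15, adjusted p = 0.000703). It fell by 0.82 over THZ531 (SE 0.15, adjusted p = 0.00234), while its total RNA changed by -0.26 against control (adjusted p = 0.193). AMD1, which makes the aminopropyl donor of polyamine synthesis, had 319 and 429 in control cells and 197 and 267 with Endovion (log2 fold change -0.69, SE 0.18, adjusted p = 0.0215). AMD1 fell by 0.78 over THZ531 (adjusted p = 0.0287), and its call against control was lost without the second control library (adjusted p = 0.414) or the first Endovion library (adjusted p = 0.437). Further genes fell in total RNA in both pairs, 19 in all, 5.09% of the 373 called against control and 70.4% of the 27 called against THZ531, which are 0.184% of the genes tested. Among them were the developmental factors SOX4 (-0.67 against control and -1.12 over THZ531) and PITX1 (-0.70 and -0.73), the tight junction protein CLDN4 (-0.57 and -0.77), the ephrin EFNA3 (-0.54 and -0.83) and LRATD1 (-0.84 and -0.91). Of these 5, LRATD1 was called against control when any 1 library was left out, while CLDN4 was lost without the first Endovion library (adjusted p = 0.0518) and SOX4, PITX1 and EFNA3 without either Endovion library or the second control library (0.058 to 0.188). The 11 genes called in both pairs for nascent and total RNA alike included CYP1A1, CYP1B1, SLC7A11, HERPUD1, SLC45A3, PMEPA1, BTG1, HES7, HMGCS1 and SRSF7.

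**Figure D4:**
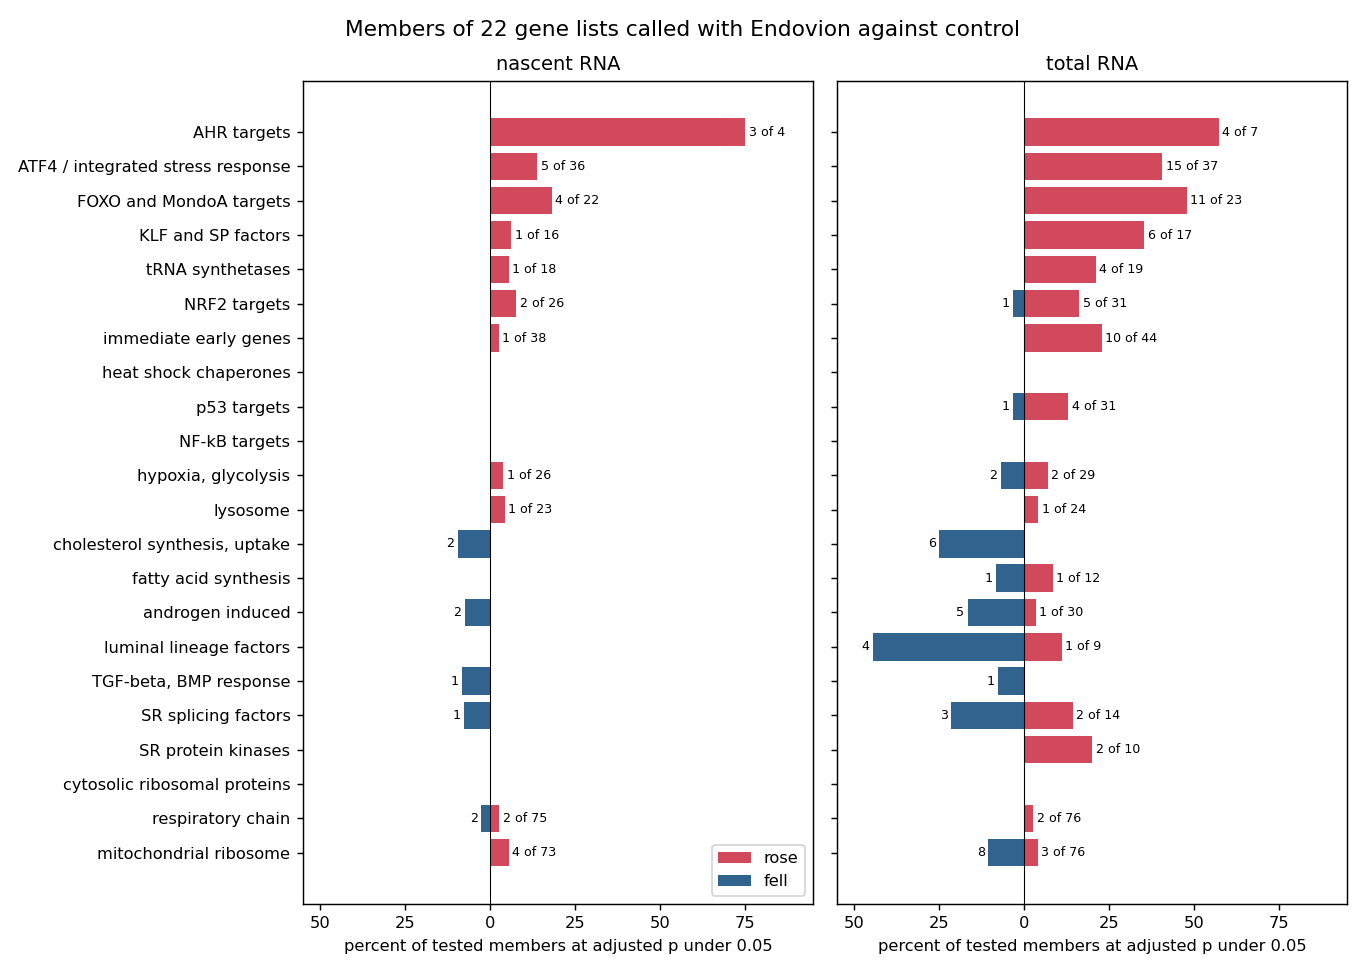
Percent of the tested members of 22 gene lists that rose (red, right) or fell (blue, left) with Endovion against control at an adjusted p under 0.05, in nascent RNA (left panel) and total RNA (right panel), with the number of members beside each bar. Of all genes tested, 2.04% rose and 0.623% fell in nascent RNA and 8.91% and 2.54% in total RNA. AHR targets (3 of 4 and 4 of 7), ATF4 targets (5 of 36 and 15 of 37) and FOXO and MondoA targets (4 of 22 and 11 of 23) have risers and no faller, and the cholesterol list (2 of 21 and 6 of 24) has fallers and no riser. The nascent bar of the AHR list is not a measure of that list, since CYP1A1 passed the filter through the libraries with Endovion. All lists were chosen with earlier results of these data known.

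Among the SR proteins, the splicing factors that SRPK1 phosphorylates, SRSF7 fell in nascent RNA, 1 of 13 tested. SRSF7 had 689 and 658 T>C CPM in control cells and 378 and 443 with Endovion (log2 fold change -0.72, SE 0.16, adjusted p = 0.00269; 0.142 without the first Endovion library). It also fell over THZ531, from 603 and 738 to 330 and 429 (log2 fold change -0.82, SE 0.16, adjusted p = 0.00277), and in neither pair did the groups overlap. In total RNA 3 of 14 SR factors fell, namely SRSF7 (-0.55, adjusted p = 0.0113), SRSF6 (-0.64, adjusted p = 0.00605) and SRSF2 (-0.36, adjusted p = 0.0429), and 2 rose, SRSF4 (1.16, adjusted p = 0.00953) and SRSF1 (0.97, adjusted p = 0.0129). Over all genes tested 0.623% fell in nascent RNA, and 2.54% fell and 8.91% rose in total RNA. Whether the counts of SR factors differ from these shares was not tested. SRSF2 was lost when any 1 library was left out (0.0729 to 0.171), SRSF6, SRSF7 and SRSF4 without the first Endovion library (0.0584, 0.0941 and 0.0789), and SRSF1 without either Endovion library (0.102 and 0.1). None of 8 kinases of SR proteins moved in nascent RNA, with a median of 0.32. SRPK1 had 57.3 and 66.6 T>C CPM in control cells and 86.7 and 83.7 with Endovion and did not pass the test (log2 fold change 0.46, SE 0.26, adjusted p = 0.437). In total RNA SRPK1 rose by 0.68 (SE 0.19, adjusted p = 0.0346) and CLK3 by 0.95 (SE 0.18, adjusted p = 0.00581). Without the second control library both calls were lost, with an adjusted p of 0.337 for SRPK1 and 0.0875 for CLK3. SRPK1 was lost without either Endovion library as well (adjusted p = 0.164 and 0.136), and CLK3 without the second (adjusted p = 0.0577).

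Genes of the other proteins that Endovion is known to inhibit were not called. LRRC8A, the obligate subunit of the volume-regulated anion channel, had 257 and 229 T>C CPM in control cells and 206 and 232 with Endovion (log2 fold change -0.16, SE 0.18, adjusted p = 0.767). LRRC8B, LRRC8C and LRRC8D had log2 fold changes between -0.26 and 0.61, none past the test. ABCG2 had 31 and 28 reads in control cells and 32 and 26 with Endovion, and UGT1A1 had 3 reads at most in any of the 4 libraries. Of 7 genes of cell volume and osmotic stress none moved in nascent RNA. In total RNA, where 8.91% of all genes tested rose, 3 of them rose, the osmotic factor NFAT5 (0.42, adjusted p = 0.0265), the taurine carrier SLC6A6 (1.11, SE 0.18, adjusted p = 0.00247) and SLC38A2. After removal of the trend with GC content 1 rose and 1 fell, and the median of the list went from 0.20 to -0.13. In that setting NFAT5 was not called (log2 fold change 0.22, adjusted p = 0.225). SLC6A6 was called when any 1 library was left out, and NFAT5 and SLC38A2 were lost without the second control library (adjusted p = 0.264 and 0.152).

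Several strong risers did not pass the test over THZ531. PDGFB, a growth factor of mesenchymal cells, had 21.9 and 15.2 T>C CPM in control cells and 107 and 96.2 with Endovion (log2 fold change 2.43, SE 0.33, adjusted p = 1.12e-06). It had 50.1 and 58.0 with THZ531 and 56.8 and 102 with both, and 69.7 and 125 with SRPIN340. RNF146, a ubiquitin ligase that recognises poly-ADP-ribose, had 5.79 and 0.802 in control cells and 61.4 and 41.4 with Endovion (log2 fold change 3.84, SE 0.57, adjusted p = 6.9e-06), and 5.86 and 12.2 with THZ531 and 19.5 and 18.7 with both. NUDT21, the cleavage factor subunit that steers the choice of polyadenylation site, had 62.4 and 53 in control cells and 141 and 182 with Endovion. It rose by 1.47 (SE 0.22, adjusted p = 9.51e-06) but stood at 162 and 228 with THZ531 and at 210 and 188 with both. Each of these 3 genes was called when any 1 library was left out. PABPC4, a poly(A) binding protein, had 82.4 and 36.9 in control cells and 172 and 190 with Endovion (log2 fold change 1.57, SE 0.24, adjusted p = 8.1e-06), and JUN, an AP-1 subunit, had 72.1 and 60.2 and then 180 and 144 (log2 fold change 1.29, SE 0.24, adjusted p = 0.000418; 0.052 without the first Endovion library). For PDGFB, NUDT21 and PABPC4 the effect of Endovion with THZ531 minus that without was -1.87, -1.43 and -1.34 on the log2 scale (adjusted p = 0.0416, 0.0187 and 0.0419). All 3 are described here for their rise against control, which enters the difference with a minus sign, so their choice favours a negative value. In all, this difference was negative for 28 genes and positive for 2, 0.282% and 0.0201% of the genes tested.

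Several stress and growth programmes had few or no members called in nascent RNA. Of all genes tested 2.04% rose and 0.623% fell there, so a short list would hold few calls at those shares. A count of 0 thus does not show that a programme was unchanged. In total RNA 8.91% of all genes tested rose and 2.54% fell. None of 22 heat shock chaperones, 9 NF-kappaB targets, 27 p53 targets or 72 cytosolic ribosomal proteins moved in nascent RNA, with medians of -0.15, -0.03, 0.20 and -0.08. In total RNA the heat shock, NF-kappaB and ribosomal lists again had no call, and 4 of 31 p53 targets rose and 1 fell, of which none was called without the second control library. After removal of the trend with GC content, 2 chaperones and 2 ribosomal proteins were called lower in total RNA. Of 26 NRF2 targets, antioxidant genes among which SLC7A11 is counted, SLC7A11 and the thioredoxin reductase TXNRD1 rose in nascent RNA and the median was -0.06. TXNRD1 was lost without the second control library (adjusted p = 0.443) or the second Endovion library (0.405). In total RNA 5 of 31 NRF2 targets rose and 1 fell, or 2 and none without the second control library. The one that fell was HMOX1, the haem oxygenase that NRF2 and oxidative stress induce, which went from 19.6 and 27.8 CPM to 12.5 and 14.3 (log2 fold change -0.82, SE 0.18, adjusted p = 0.0103). Its call was lost without the second control library (adjusted p = 0.123) or the first Endovion library (0.108). Of 44 immediate early genes 10 rose in total RNA, where the median was 0.27, and of 38 tested in nascent RNA 1 rose, JUN. Without the second control library 2 of the 44 were called.

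Few cell cycle genes were called. Of 32 mitotic genes 2 rose and 1 fell in nascent RNA, and of 36 genes of DNA replication 1 fell, where 2.04% of all genes rose and 0.623% fell. In total RNA 3 of 32 and 3 of 38 rose and 1 of each list fell, where 8.91% of all genes rose and 2.54% fell. Whether counts this small differ from the shares over all genes was not tested, here or for the lists below. CCNB1, the mitotic cyclin, had 271 and 365 T>C CPM in control cells and 206 and 190 with Endovion (log2 fold change -0.68, SE 0.18, adjusted p = 0.0237), and RFC3 of the clamp loader had 245 and 296 and then 166 and 184 (log2 fold change -0.63, SE 0.18, adjusted p = 0.034). Neither fell in total RNA, and neither was called without the second control library (adjusted p = 0.459 and 0.377) or without either Endovion library (0.0973 to 0.317). PRC1, which bundles microtubules at division, rose from 25.1 and 14.4 to 89.0 and 96.2 (log2 fold change 2.20, SE 0.33, adjusted p = 5.99e-06), with reads that may be shared with an overlapping gene. Of 75 nuclear genes of the respiratory chain 2 rose and 2 fell in nascent RNA (median -0.17), and of 73 genes of the mitochondrial ribosome 4 rose (median -0.12). Without the second control library 1 gene of each list was called, a riser.

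The labelled share of a gene, its T>C reads against its reads without a conversion, changed at few genes. It rose for 8 genes and fell for 36, 0.0804% and 0.362% of the 9945 tested, with a median log2 change of -0.02 over all. T>C reads and unlabelled reads were each scaled by their own TMM factors, which sets that median near 0. A rise thus means that T>C reads grew more against unlabelled reads than in the typical gene. With a common library size from all reads the median was -0.19, and 2 genes rose and 25 fell. OAZ1, the antizyme that restrains polyamine synthesis, had 1045 T>C reads of 16210 and 677 of 13234 in control cells and 1815 of 19581 and 1398 of 14113 with Endovion. Its share was higher in both Endovion libraries and rose by 0.96 on the log2 scale (SE 0.11, adjusted p = 1.7e-06). Shares also rose for NFIC, a transcription factor (295 of 8031 and 269 of 7199, then 442 of 7714 and 281 of 5539; log2 change 0.74, SE 0.15, adjusted p = 0.0108), for the desmosomal protein PKP3 (0.69, adjusted p = 0.0318) and for SCARNA9, a small Cajal body RNA (1.65, SE 0.38, adjusted p = 0.0368). SCARNA9 had 19, 17, 52 and 26 T>C reads, few for such a test, and its reads may be shared with an overlapping gene. None of these 4 genes passed the test in nascent RNA alone. When the reads of all intervals of a gene were summed, the share of OAZ1 was not called (adjusted p = 0.168), nor were those of NFIC, PKP3, SCARNA9, NUP205, PSMA5, WDR72, MRPL13 and MCM2 (0.102 to 0.421).

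The named genes whose shares fell had more reads without a conversion with Endovion. NUP205, a nucleoporin, had 364 T>C reads of 3013 and 237 of 1432 in control cells and 428 of 6519 and 322 of 5026 with Endovion. Its T>C CPM went from 234 and 190 to 328 and 310 and its share fell by 1.06 (SE 0.17, adjusted p = 0.000735; 0.057 without the second control library). PSMA5, a proteasome subunit, had 278 of 1199 and 159 of 643 and then 145 of 1499 and 149 of 1336 (log2 change -1.27, SE 0.21, adjusted p = 0.0016; 0.15 without the first Endovion library). WDR72 (-1.10, SE 0.16, adjusted p = 0.000261), the mitochondrial ribosomal protein gene MRPL13 (-1.94, SE 0.29, adjusted p = 0.000275) and the replication helicase subunit MCM2 (-0.86, SE 0.15, adjusted p = 0.0016) were alike in direction. None of the 9 genes named here passed the test of the share on addition of Endovion to THZ531 (log2 changes between -0.34 and 0.45). The share of SCARNA9 was not called when any 1 library was left out (adjusted p between 0.0623 and 0.619), that of PKP3 without either Endovion library or the first control library (0.0588 to 0.594), that of NFIC without either Endovion library or the second control library (0.0529 to 0.466), and that of MCM2 without the first Endovion library (0.167) or the second control library (0.131). The genes of the AHR, ATF4 and cholesterol responses named above that were looked up did not pass the test of the share: CYP1A1 had a log2 change of -0.49 (adjusted p = 0.822), SLC7A11 of -0.08 (adjusted p = 0.933) and HMGCS1 of 0.04 (adjusted p = 0.954).

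**Figure D5:**
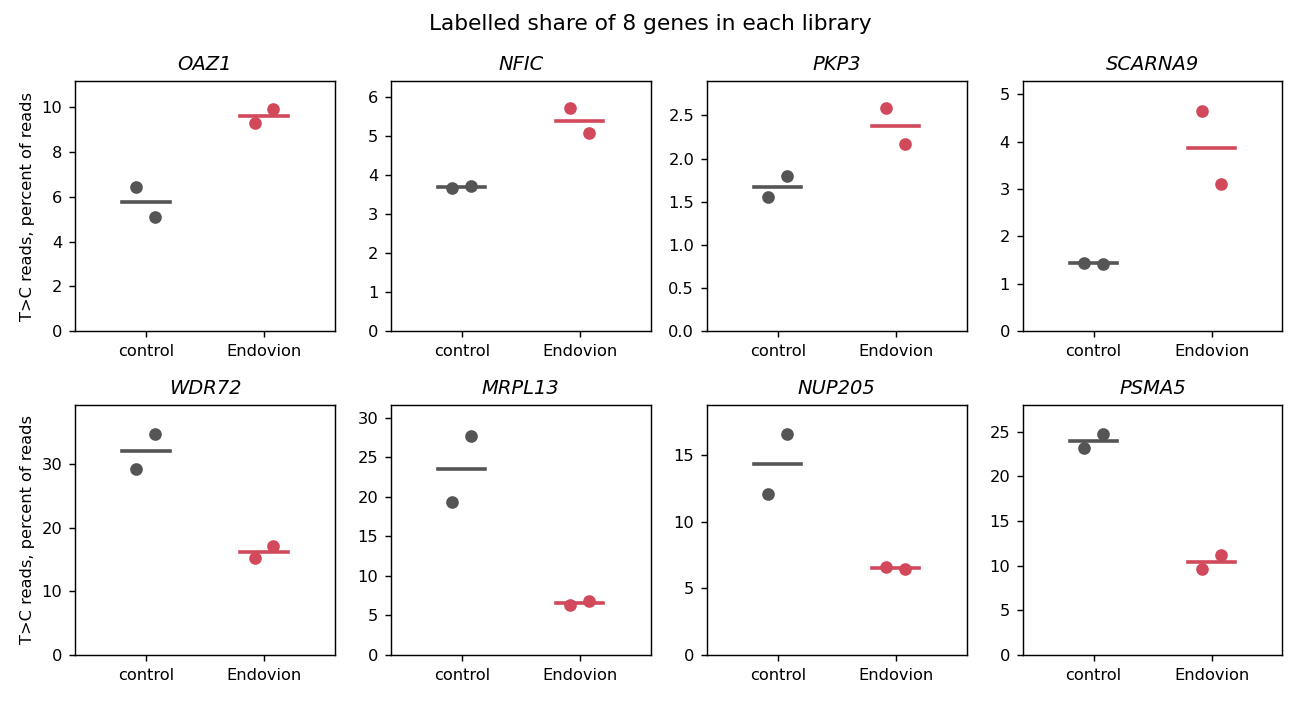
T>C reads as a percent of all reads (vertical axes, from 0) of 8 genes in the 2 control and the 2 Endovion libraries. Points are libraries and bars are group means. In the upper row, OAZ1, NFIC, PKP3 and SCARNA9, both Endovion libraries are above both control libraries, and in the lower row, WDR72, MRPL13, NUP205 and PSMA5, both are below.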

How the data were processed

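RNA labelled with 4-thiouridine for 10 min was alkylated and sequenced from the 3′ end. The authors ran SLAM-DUNK on hg38, and the deposited values are read counts and T>C read counts per 3′ interval. The submitters' processing notes name Bowtie2 2.3.4.1, SAMtools 1.6 and DESeq2 1.38.2. The handling of molecular identifiers is not given in the sources used here, so counting errors may be too small. No library without label was used here, so background conversions could not be subtracted. Intervals were matched to GENCODE genes, and of overlapping intervals of a gene the best covered was kept (57529 of 104653 intervals, 31014 genes).

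T>C reads (nascent) and all reads (total) were tested in edgeR 4.0.16 (R 4.3.3) by quasi-likelihood with TMM factors and group means over all 10 libraries, after its filter on low counts, with Benjamini-Hochberg adjustment at 0.05. The labelled share was tested as the interaction of read class and group with each library as a block and TMM factors within each read class. DESeq2 1.42.0 was an alternative, and removal of the trend with GC content was added after seeing the data. Control and Endovion libraries of the same number did not deviate together (correlation 0.0089 nascent, 0.0039 total), so the fit was not paired. The code was tested on simulated data.

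The members and gene lists were chosen with earlier results of these data known. Named genes were the 15 rising and 10 falling nascent, 6 and 6 total and 4 and 4 share genes of smallest p, with a log2 change of at least 1 in size for nascent and total RNA and at least 20 T>C reads (100 reads for total), all AHR, compound-target and splicing-kinase list members, and up to 4 members of each other list by nascent p. Other names (calls against SRPIN340 or in both pairs, list members called in total RNA, single genes such as KLK3, MCM2 and ATF4) were chosen after their values were seen. Some genes that met these rules are not reported here, and the next in rank took their place.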

Additional observations from a re-analysis of the deposited data

Results flagged for a closer look

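For 14 of the genes examined one by one, the nascent effect of Endovion differed between cells with and without THZ531 by a test of the difference itself (edgeR, adjusted over the 9945 genes). The difference, given as the log2 effect with THZ531 minus that without, was negative for 12 of them. Many of the genes examined one by one were picked by a small p against control. That effect enters the difference with a minus sign. The choice thus favours a negative difference for risers and a positive one for fallers. The genes of transcription and RNA handling among them were MNAT1, a subunit of the CDK-activating kinase (-5.072), POLR2B, the second subunit of RNA polymerase II (-2.373), and PNRC1, a nuclear receptor coactivator (-1.448). MNAT1 had 5 T>C reads of 185 reads and 6 of 54 in control cells, and 133 of 518 and 141 of 310 with Endovion. Its total RNA did not pass the test against control (log2 fold change 1.97, adjusted p = 0.129). Whether all of these T>C reads come from the label was not tested. The polyadenylation and poly(A) factors NUDT21 and PABPC4 had -1.433 and -1.345. The values were -2.08 for the adaptor SDCBP, -1.874 for the growth factor PDGFB, -1.804 for PRC1 of the mitotic spindle and -1.59 for the cell cycle inhibitor CDKN2A. They were -2.989 for NDUFB3 of respiratory complex I, -2.842 for the mitochondrial ribosomal protein MRPL16 and -3.19 for the zinc finger gene ZNF227.

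The difference was positive for 2 genes. KDELR2, which returns proteins to the endoplasmic reticulum, had 1.599, from a log2 effect of -0.61 without THZ531 to 0.99 with it. WNT7B had a fitted difference of 8.044, which is no bound on its size, since the Endovion libraries without THZ531 held no T>C read of this gene. It had 33 T>C reads of 92 reads and 43 of 170 in control cells, and 0 of 38 and 0 of 43 with Endovion.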

How the results depend on the processing

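No named gene that passed a test changed direction in an alternative that was run. Medians near 0 did: that of all genes in total RNA went from 0.02 to -0.02 with the 4 libraries, -0.01 by DESeq2, -0.01 with RLE factors, -0.02 after removal of the GC trend and -0.02 without control replicate 2, that in nascent RNA from -0.01 to 0.03 and 0.02 without control replicate 1 and 2, and that of the NRF2 targets in nascent RNA from -0.06 to 0.01 after removal of the GC trend. Nascent risers (203) numbered 41 in the plain sum of intervals and between 75 and 305 when 1 library was left out, and nascent fallers (62) numbered 35 with the 4 libraries alone, 95 with library sizes from all reads, 5 in the plain sum and 14 to 91 with 1 library left out. Total risers (1308) ranged from 172 to 1812 with 1 library left out. Total fallers (373) numbered 629 by DESeq2, 576 after removal of the GC trend, 708 without a filter on low counts and 48 to 557 with 1 library left out. Share risers (8) numbered 5 with the 4 libraries, 2 with library sizes from all reads, 14 without the filter, 1 in the plain sum and 2 to 20 with 1 library left out, and share fallers (36) numbered 83, 0 and 3 to 72 without the filter, in the plain sum and with 1 library left out. Of the settings that left out 1 library, the one without control replicate 2 had the lowest counts of total risers and of nascent risers and fallers. Risers made up 76.6% of nascent calls, and 63.5% with library sizes from all reads, where the median of all genes was -0.105. Risers made up 77.8% of total calls, and 61.5% after removal of the GC trend. With the replicate number as a block, 214 nascent genes rose and 75 fell, 1159 and 326 in total RNA, and 8 and 37 for the share. Single-gene calls held in 701 and were lost in 176 checks for nascent RNA, 1255 and 428 for total RNA, and 79 and 51 for the share. The cause of these shifts was not tested. Few T>C reads limited the precision: AHR, with 1 to 9 of them in a library, had an SE of 0.97 on the log2 scale, against 0.14 for BTG1.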
